A study of Mus musculus with 4 samples.

Results

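The Cyp2 genes of the liver other than Cyp2b were followed in male mice that ate a fat- and sugar-rich diet for up to 15 weeks. Every gene on the array whose name was Cyp2 with the subfamily letter a, c, d, e, f, g, j, r, s, u or w and a number was taken, which gave 39 of the 34743 genes on the array. They were measured by 54 of its 55681 probes, on 63 of 59305 spots. Membership follows from the name, with no threshold on a measured value. The set held 13 Cyp2c, 10 Cyp2d, 6 Cyp2j and 3 Cyp2a genes, and 1 gene each of Cyp2e, Cyp2f, Cyp2g, Cyp2r, Cyp2s, Cyp2u and Cyp2w.

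Livers came from male C57BL/6 mice, an inbred laboratory strain with no engineered allele in the labels, sampled before and after 5, 10 and 15 weeks of the high-fat, high-sucrose (HFHS) feeding. Feeding began at an age of 5 weeks, so the groups (0, 5, 10 and 15 weeks) were 5, 10, 15 and 20 weeks of age. Each group was 1 array, although the series text gives 4 mice per time point, and whether the RNA was from 1 mouse or a pool is not stated. Mice on a control diet were not analysed here, so time on the diet and age cannot be told apart. With 1 array per time there was no replicate check and no test, and every difference below compares single arrays.

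Cyp2 genes encode cytochrome P450 monooxygenases, haem proteins of the endoplasmic reticulum that take electrons from the P450 reductase and insert oxygen into drugs, steroids, retinoids and fatty acids. They are among the most abundant transcripts of hepatocytes, and several lie in tandem clusters of similar genes. In the mouse liver many of them follow sex and growth hormone, differ along the porto-central axis, and respond to the xenobiotic receptors CAR (Nr1i3) and PXR (Nr1i2).

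A level is the log2 of the spot's processed signal divided by the 75th percentile of its array, so a level of 0 is that percentile. A gene was taken at its brightest probe, counted as measured where the probe was well above background on each array of a comparison, and called higher or lower at a 2-fold difference. Of the 39 genes, 32 were above background on all 4 arrays, 5 on some of them and 2 (Cyp2j11 and Cyp2w1) on none. The scaling percentile was between 193.7 and 271.6 intensity units, from 44.5% to 48.3% of spots were above background, and no spot was saturated. The 15-week array was the brightest, and the median of all genes measured at 15 and 0 weeks differed by -0.25 on the log2 scale, so differences at 15 weeks are given beside that shift. The 9 hepatocyte markers were above background on every array, and their summed scaled signal was 11700, 10500, 11500 and 7720 at 0, 5, 10 and 15 weeks.

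Most of the Cyp2 genes that differed by 2-fold or more from 0 weeks were lower. At 5 weeks 5 of the 32 Cyp2 genes measured were lower by 2-fold or more (Cyp2a4, Cyp2c39, Cyp2c68, Cyp2j9 and Cyp2s1) and none was higher, where 1.56% of all genes were lower and 2.31% higher. At 10 weeks 3 of 36 were lower (Cyp2c66, Cyp2c68 and Cyp2s1), against 1.53% of all genes, and 1, Cyp2d40, was higher, against 2.92%. At 15 weeks 11 of 35 were lower, against 5.03% of all genes, and none was higher, against 5.76%. Those 11 were Cyp2c29, Cyp2c37, Cyp2c50, Cyp2c54, Cyp2c66, Cyp2c67, Cyp2c68, Cyp2d9, Cyp2d34, Cyp2s1 and Cyp2u1. Without the repeat probe of Cyp2u1, described with that gene, 10 were. With quantile normalization 7 were lower, and Cyp2c29, Cyp2c50, Cyp2d9 and Cyp2u1 were not. Taken against the median gene instead, 9 members were lower at 15 weeks, where 2.77% of all genes were. Between 5 and 15 weeks 4 of 32 members were lower (Cyp2c54, Cyp2d9, Cyp2d34 and Cyp2u1) against 4.3% of all genes, and none was higher against 4.07%. Without repeat probes 3 were lower, and with quantile normalization 1 was.

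The median log2 difference of the members was -0.19 at 5 weeks, 0.0 at 10 weeks and -0.59 at 15 weeks, beside -0.02, -0.01 and -0.25 over all genes measured. Bright genes as a group were lower at 15 weeks. Among the 2489 genes with a mean level of at least 5 the median was -0.41 and 7.39% were at least 2-fold lower, while 7 of the 21 members of that brightness were, with a median of -0.71. Among the 510 genes with a mean level of at least 8, 14.5% were lower, and 1 of 9 members was, Cyp2u1 by its repeat probe. Without it the count was 0 of 8, while the shares over all genes of either brightness still hold other repeat probes. All 75 probes of the array with a GT repeat like that of Cyp2u1 were at least 2-fold lower at 15 weeks. How many of them stand for genes of this brightness was not counted, so the count and the share are not alike. In all, 25 of the 32 members above background throughout were lowest at 15 weeks, where 59.2% of all such genes were.

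**Figure D1:**
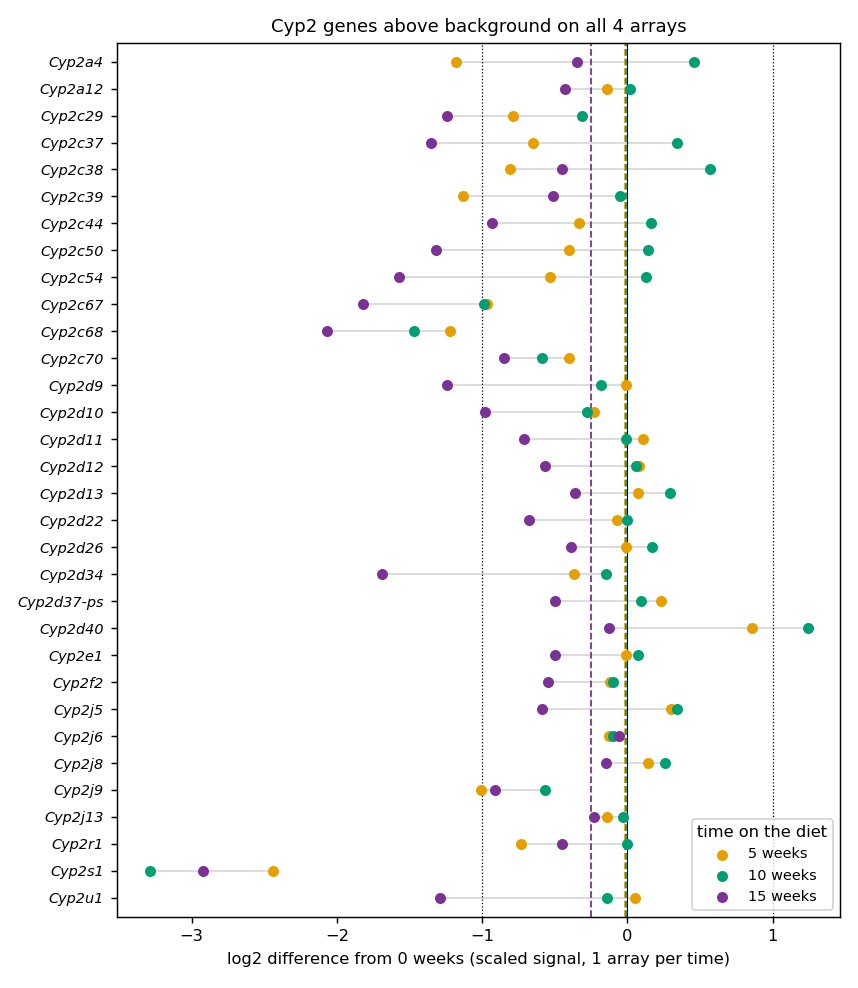
Log2 difference of scaled signal from 0 weeks (horizontal axis) at 5, 10 and 15 weeks (coloured points) for the 32 Cyp2 genes above background on all 4 arrays, with 1 array per time; dashed lines are the median of all genes at each time and dotted lines mark 2-fold. Cyp2c genes lie to the left at 5 and 15 weeks, Cyp2s1 lies farthest left at every time, and Cyp2d40 alone passes 2-fold to the right.

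**Figure D2:**
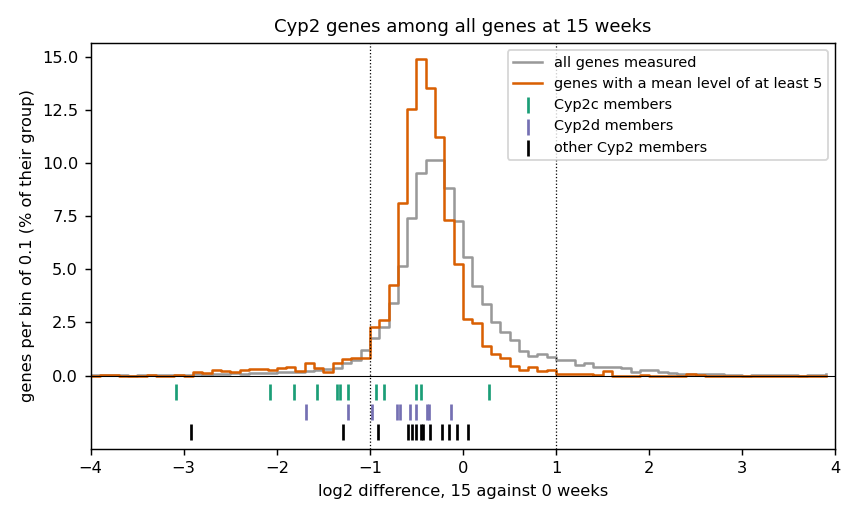
Distribution of the log2 difference between 15 and 0 weeks over all genes measured (grey) and over genes with a mean level of at least 5 (orange), in percent of each group per bin, with ticks for the 35 Cyp2 members measured; dotted lines mark 2-fold. Cyp2c ticks reach from -3.08 to 0.28 and Cyp2d ticks from -1.69 to -0.13.

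The Cyp2c enzymes hydroxylate and epoxygenate arachidonic and linoleic acid, retinoids, steroids and many drugs. Apart from Cyp2c44 (now Cyp2c23), 12 of the 13 lie side by side on mouse chromosome 19, with probes between 39116674 and 40228028 of the mm9 build, a stretch of 1111 kb. All 10 Cyp2c genes measured at 5 and 0 weeks were below their 0-week level at 5 weeks. Their median was -0.72, with a range from -1.22 to -0.33, beside a median of -0.02 over all genes. At 10 weeks the median was -0.18, and at 15 weeks it was -1.28 with 7 of 12 at least 2-fold lower, beside -0.25 and 5.03% over all genes. Of these 7, Cyp2c29 at -0.77 and Cyp2c50 at -0.85 were not past 2-fold with quantile normalization. Along the cluster those 7 were not adjacent throughout. Cyp2c66 and Cyp2c29 stood next to Cyp2c38 and Cyp2c39, which were less than 2-fold lower, and these were followed by Cyp2c67, Cyp2c68, Cyp2c37, Cyp2c54 and Cyp2c50, which were lower, and by Cyp2c70, which was 1.8-fold lower.

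Because the Cyp2c genes are so alike, probes for different genes can catch each other's transcripts. The probes of Cyp2c67 and Cyp2c68 matched at 55 of 59 aligned bases and those of Cyp2c37 and Cyp2c50 at 35 of 40. Stretches of each pair are shown from the array's annotation, with capitals at the bases that differ.
Cyp2c67 stretch: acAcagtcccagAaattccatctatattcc
Cyp2c68 stretch: acCcagtcccagGaattccatctatattcc
Cyp2c37 stretch: aCactgACttttatccaGttcttttgcctC
Cyp2c50 stretch: aTactgCTttttatccaTttcttttgcctG
The Cyp2c68 probe (chr19:39763420-39763479, mm9, minus strand) also lists transcripts of Cyp2c40 and Cyp2c69, and the second Cyp2c67 probe (chr19:39683541-39683600, minus strand) lists those of Cyp2c40 and Cyp2c68. No probe was named for Cyp2c40 or Cyp2c69, so the values under the names Cyp2c67 and Cyp2c68 may hold signal of up to 4 genes.

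Cyp2c68 was at 7.79, 6.57, 6.33 and 5.72 at 0, 5, 10 and 15 weeks. It was highest at 0 weeks and lower at each later time, by 2.33-fold, 2.77-fold and 4.2-fold against 0 weeks. Cyp2c67 was at 8.13, 7.16, 7.14 and 6.31, which was 1.96-fold, 1.99-fold and 3.54-fold lower than at 0 weeks. The second Cyp2c67 probe differed from 0 weeks by -0.84, -0.82 and -1.49 on the log2 scale, in the same order over time. With each profile centred on its own mean, the members most like Cyp2c68 over the 4 arrays were Cyp2c67, at a mean absolute distance of 0.12, Cyp2c70 at 0.36 and Cyp2c29 at 0.39. Cyp2c70, which makes the muricholic acids of mice, was at 6.55, 6.14, 5.95 and 5.7, the same order at a smaller size.

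The sequences upstream of Cyp2c67 and Cyp2c68 were compared because these genes moved together. Each is the 250 bases before the annotated start, from RefSeq on GRCm38.p6, at chr19:39649043-39649292 and chr19:39741102-39741351, both on the minus strand. Capitals mark CAAAGTCCA, a core bound by HNF4, TTGCNNAA, a C/EBP core, and GTTAAT, part of an HNF1 site, each on either strand.
Cyp2c67 upstream: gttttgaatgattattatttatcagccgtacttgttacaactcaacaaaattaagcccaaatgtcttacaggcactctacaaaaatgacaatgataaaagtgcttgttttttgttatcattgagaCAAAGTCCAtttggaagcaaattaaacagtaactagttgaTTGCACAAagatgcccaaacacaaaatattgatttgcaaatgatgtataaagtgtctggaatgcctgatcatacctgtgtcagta
Cyp2c68 upstream: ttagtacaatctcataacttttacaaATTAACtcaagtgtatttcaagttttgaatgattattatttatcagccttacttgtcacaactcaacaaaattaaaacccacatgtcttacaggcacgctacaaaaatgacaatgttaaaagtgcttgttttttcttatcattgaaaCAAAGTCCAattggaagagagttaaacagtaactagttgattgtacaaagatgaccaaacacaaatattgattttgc
Shifted for the best match without gaps, the upstream sequences were the same at 148 of 202 bases (73.3%). CAAAGTCCA begins 125 bases before the start of Cyp2c67 and 77 bases before that of Cyp2c68. Upstream sequences were at hand for 30 members, and 4 held CAAAGTCCA (Cyp2c65, Cyp2c67, Cyp2c68 and Cyp2c70), against 0.381% of 27025 promoters of that length. TTGCNNAA was in 5 of the 30, against 9.55% of all, and GTTAAT in 3, against 6.52%. Of the other motifs searched, a longer HNF4 direct repeat, a full HNF1 site and a CAR direct repeat were in 0 of the 30. Over all promoters they were in 0.037%, 0.0074% and 0.0111%, so rare that 0 of 30 says nothing particular of these genes. TTCNNNGAA, a STAT site, was in 1, against 7.18% of all. GCGTG, the xenobiotic response core, was in 4, against 28.2%, and TATAAA in 17, against 13.0%. The 4 genes with CAAAGTCCA are related genes of the same cluster, so these matches are not independent. All such matches describe letters in the window and show no binding.

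Cyp2c29, a retinoid and drug hydroxylase and a known CAR target, was spotted 10 times on each array, which gives the only measure of technical error among the members. Its probe lies at chr19:39403642-39403701 (mm9, plus strand) and shares 27 of 31 aligned bases with 1 Cyp2c37 probe (chr19:40084382-40084441, plus strand). Both are printed whole, with capitals at the bases that differ in the aligned stretch.
Cyp2c29 probe: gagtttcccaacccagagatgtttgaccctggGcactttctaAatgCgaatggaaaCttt
Cyp2c37 probe: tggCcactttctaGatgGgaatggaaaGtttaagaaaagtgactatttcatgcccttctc
Cyp2c29 was at 7.55, 6.76, 7.25 and 6.32 at 0, 5, 10 and 15 weeks, with SDs over its 10 spots of 0.035, 0.0506, 0.0428 and 0.0345. The ranges of the 10 spots did not overlap between any 2 arrays, but repeated spots carry the error of 1 hybridisation and say nothing of the spread between mice. At 15 weeks it was 2.35-fold lower than at 0 weeks.

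Cyp2c37, an arachidonic acid hydroxylase, was at 5.3, 4.65, 5.64 and 3.95, which was 2.54-fold lower at 15 than at 0 weeks. Its second probe, the one printed, was 1.32 lower on the log2 scale, beside 1.35 for the first. Cyp2c50, an epoxygenase, was at 7.53, 7.13, 7.67 and 6.21 and 2.5-fold lower at 15 weeks. Both were lowest at 15 weeks and highest at 10 weeks, with a dip at 5 weeks.

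Cyp2c54, a monooxygenase of arachidonic and linoleic acid, was at 7.12, 6.59, 7.24 and 5.55. It was 2.97-fold lower at 15 than at 0 weeks and 2.06-fold lower than at 5 weeks. Its other 2 probes, which share 42 bases (capitals) and lie on chr19 at 40144659-40144718 for probe a and 40122119-40144700 across an intron for probe b (mm9, minus strand), gave the following sequences.
Cyp2c54 probe a: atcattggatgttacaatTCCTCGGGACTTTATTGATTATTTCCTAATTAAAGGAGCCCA
Cyp2c54 probe b: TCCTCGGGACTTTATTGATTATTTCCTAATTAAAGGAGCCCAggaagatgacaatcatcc
Between 15 and 0 weeks probe a differed by -1.42 and probe b by -1.85, so all 3 probes were past 2-fold. Between 15 and 5 weeks probe a, at -0.9, was not.

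Cyp2c38 and Cyp2c39, close relatives of Cyp2c29, dipped at 5 weeks and were higher again at 10 weeks. Cyp2c39, a retinoic acid hydroxylase, was at 1.65, 0.52, 1.61 and 1.14 and 2.2-fold lower at 5 than at 0 weeks, a difference of -1.13 that was -0.97 with normexp background correction and quantile normalization together. Its probe (chr19:39642568-39642627, mm9, plus strand) has the sequence below.
Cyp2c39 probe: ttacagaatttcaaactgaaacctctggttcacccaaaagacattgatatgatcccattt
Cyp2c38 was at 6.14, 5.32, 6.71 and 5.69, less than 2-fold from 0 weeks throughout, and 2.62-fold higher at 10 than at 5 weeks. Its second probe was not above background at 5 weeks. Cyp2c44, an arachidonic acid epoxygenase, was at 6.31, 5.98, 6.47 and 5.38, with no 2-fold difference from 0 weeks.

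Cyp2c55, Cyp2c65 and Cyp2c66 are best known from the intestine, and none of the 3 was above background on all 4 arrays. Cyp2c66 was at -0.76 at 0 weeks, not well above background at 5 weeks, and at -2.95 and -3.84 at 10 and 15 weeks. Its probe also lists transcripts of Cyp2c65. Cyp2c66 was 4.55-fold lower at 10 weeks and 8.46-fold lower at 15 weeks, with a rough bound of 6.41-fold lower at 5 weeks. With normexp and quantile normalization it was 2.22-fold lower at 10 weeks and 2.51-fold lower at 15 weeks. Cyp2c65 was above background at 0 weeks alone, at -1.68. Its rough bounds were 3.39-fold, 3.72-fold and 5.37-fold lower at 5, 10 and 15 weeks. Such bounds set the 0-week level against the dimmest signal that counted as above background anywhere on the later array. Where the gene's own signal was higher, that was used instead. The bounds are not strict minimum differences, since some spots brighter than that dimmest signal did not count as above background. Cyp2c55 was at -2.45, -3.13 and -2.18 at 0, 10 and 15 weeks. At 5 weeks it was not well above background, with a rough bound of 1.98-fold lower than at 0 weeks.

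**Figure D3:**
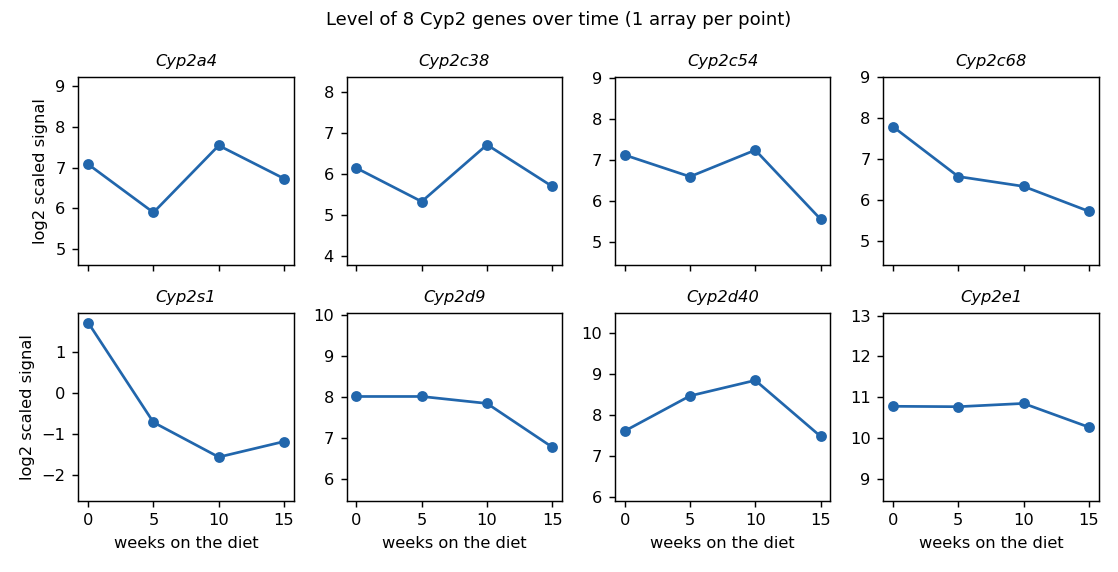
Level (log2 of scaled signal, vertical axis, each panel spanning the same range) of 8 Cyp2 genes against weeks on the diet, with 1 array per point. Cyp2a4 and Cyp2c38 dip at 5 weeks, Cyp2c68 and Cyp2s1 are highest at 0 weeks, Cyp2d9 is lower at 15 weeks alone, and Cyp2d40 peaks at 8.85 at 10 weeks.

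The dip at 5 weeks was shared by genes outside Cyp2c. Of the 32 members above background throughout, 10 were lower at 5 weeks than at both 0 and 10 weeks by at least 0.3 on the log2 scale, where 6.22% of all such genes were. These were Cyp2a4, Cyp2c29, Cyp2c37, Cyp2c38, Cyp2c39, Cyp2c44, Cyp2c50, Cyp2c54, Cyp2j9 and Cyp2r1. No Cyp2d gene was among them. Since the dip rests on the 5-week array and has no replicate, the spread between mice cannot be set beside it.

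Cyp2a4, a steroid hydroxylase that is higher in female than in male mouse liver, had the deepest dip among these. It was at 7.08, 5.9, 7.54 and 6.73, which was 2.26-fold lower at 5 than at 0 weeks and 3.12-fold higher at 10 than at 5 weeks. Its second probe gave -1.31, 0.46 and -0.38 against 0 weeks, beside -1.18, 0.46 and -0.35 for the first. This second probe spans an intron on chromosome 7 (chr7:27098659-27099724, mm9, plus strand).
Cyp2a4 probe: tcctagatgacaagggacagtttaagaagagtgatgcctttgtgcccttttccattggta
Both probes list transcripts of Cyp2a5, the coumarin hydroxylase, for which no probe was named, so the values stand for both genes together. The 250 bases upstream of Cyp2a4 (chr7:26306942-26307191, GRCm38.p6, plus strand, RefSeq) equal those of Cyp2a5 at 245 of 249 aligned bases, and hold GTTAAT and TTGCNNAA (capitals).
Cyp2a4 upstream: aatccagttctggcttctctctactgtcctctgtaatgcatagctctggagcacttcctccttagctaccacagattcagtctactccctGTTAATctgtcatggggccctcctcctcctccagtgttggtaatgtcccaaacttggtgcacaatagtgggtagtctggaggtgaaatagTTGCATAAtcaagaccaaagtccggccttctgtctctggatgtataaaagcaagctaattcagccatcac

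The other Cyp2a genes differed less. Cyp2a12, a hepatic steroid hydroxylase, was at 8.32, 8.18, 8.34 and 7.89, with no 2-fold difference. Cyp2a22 was near background, at -2.45, -2.71 and -2.4 at 0, 10 and 15 weeks. At 5 weeks it was not well above background, with a rough bound of 1.99-fold lower than at 0 weeks.

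The 10 Cyp2d genes, all within 416 kb of chromosome 15, hydroxylate steroids, amines and drugs. At 5 weeks the median was -0.72 for the Cyp2c genes and -0.02 over all genes. That of the Cyp2d genes was 0.03, with 5 of 10 below zero and none past 2-fold. At 15 weeks all 10 were below their 0-week level with a median of -0.62, and 2 were at least 2-fold lower. Over all genes 70.9% were below their 0-week level at 15 weeks, with a median of -0.25, and 5.03% were at least 2-fold lower. The 10 Cyp2d genes were also all lower at 15 than at 5 weeks, with a median of -0.74. Over all genes that median was -0.21, so most genes were lower there too.

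Cyp2d9, a male-predominant steroid hydroxylase, was at 8.01, 8.01, 7.84 and 6.77, so that 3 arrays were alike and the 15-week array was 2.37-fold lower than the first. Cyp2d34 was at 3.71, 3.34, 3.56 and 2.02 and 3.24-fold lower at 15 weeks. Its second probe was 1.13 lower on the log2 scale at 15 weeks, and, at -0.91, not past 2-fold between 15 and 5 weeks. The Cyp2d34 probe (chr15:82447966-82448025, mm9, minus strand) matches at its end the beginning of the Cyp2d9 probe (chr15:82285582-82285641, plus strand), at 17 of 19 bases, and capitals mark those 17.
Cyp2d34 probe: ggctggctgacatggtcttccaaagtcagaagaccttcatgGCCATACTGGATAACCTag
Cyp2d9 probe: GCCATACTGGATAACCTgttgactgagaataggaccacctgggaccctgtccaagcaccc
Cyp2d40 was the exception, at 7.61, 8.47, 8.85 and 7.48. It was 1.82-fold higher at 5 weeks and 2.36-fold higher at 10 weeks than at 0 weeks, and back within 1.09-fold at 15 weeks. Among the others, Cyp2d10 came closest to the threshold, 1.98-fold lower at 15 weeks, and Cyp2d26 was 1.31-fold lower. Cyp2d37-ps, a pseudogene, was at 5.26, 5.49, 5.35 and 4.76, 1.41-fold lower at 15 weeks. Cyp2d11, Cyp2d12, Cyp2d13 and Cyp2d22 were between 1.29-fold and 1.64-fold lower at 15 weeks.

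Cyp2e1 oxidises ethanol, acetone and other small molecules and is a marker of pericentral hepatocytes. It was at 10.78, 10.77, 10.85 and 10.27, and its second probe (chr7:147956922-147956981, mm9, plus strand) was at 10.09, 10.23, 10.29 and 9.61.
Cyp2e1 probe: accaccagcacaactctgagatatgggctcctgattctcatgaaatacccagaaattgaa
Between 15 and 0 weeks the probes differed by -0.5 and -0.48, about as much as the median of -0.45 over genes with a mean level of at least 8. Cyp2f2, which activates naphthalene and is highest in periportal hepatocytes, was at 9.33, 9.21, 9.23 and 8.78, a difference of -0.55 at 15 weeks. Neither was 2-fold different at any time.

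Cyp2s1, an enzyme of epithelia such as airway and gut that responds to the dioxin receptor, differed most among the members above background throughout. It was at 1.72, -0.72, -1.57 and -1.19, high on the 0-week array and low on the other 3. Against 0 weeks it was 5.43-fold, 9.81-fold and 7.55-fold lower at 5, 10 and 15 weeks. With normexp and quantile normalization these were 3.89-fold, 5.7-fold and 4.92-fold. Its probe lies on chromosome 7 at 26587495-26587554 (mm9, minus strand), and no other probe was named for the gene. The members most like it in centred profile were Cyp2c68, at a mean distance of 0.55, Cyp2c67 at 0.67 and Cyp2c29 at 0.79. Markers of bile duct cells moved with it at 5 and 10 weeks. Of 11 measured, 6 were at least 2-fold lower and 1 higher at 5 weeks, 7 lower and 0 higher at 10 weeks, and 4 lower and 2 higher at 15 weeks. Over all genes 1.56%, 1.53% and 5.03% were lower and 2.31%, 2.92% and 5.76% higher at these times. The summed scaled signal of the bile duct markers was 23.6, 16.4, 5.63 and 19.8 at 0, 5, 10 and 15 weeks, with Cftr above background on no array. Single genes carried some of these sums, Krt7 with 7.94 at 5 weeks and Spp1 with 9.71 at 15 weeks. Without both, the sum was 21.6, 6.18, 3.45 and 9.7. Lgals2, Vsig2, Krt19 and Prom1 were at least 2-fold lower than at 0 weeks at each later time, by 13.2-fold, 5.56-fold, 3.95-fold and 2.01-fold at 15 weeks. Bile duct markers were not alone in this. Of 9 stellate and smooth muscle markers, 3 were at least 2-fold lower and 0 higher at 5 weeks. At 10 weeks 5 were lower and 0 higher, and at 15 weeks 1 was lower and 4 higher. The part of either group of cells in the Cyp2s1 values was not tested. In whole liver, fewer cells of a type and less RNA per cell cannot be told apart.

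Cyp2g1, the olfactory cytochrome, was at -2.35 and -1.84 at 0 and 10 weeks and not well above background at 5 and 15 weeks. Rough bounds there were 2.04-fold and 3.39-fold lower than at 0 weeks. Of the spots around its 10-week spot, 7 were at least 2-fold above their median on the other arrays. That is past the 5 such neighbours at which a spot was left out in an alternative, so the 10-week value is uncertain. Cyp2r1, the vitamin D hydroxylase of the liver, was at 3.15, 2.42, 3.15 and 2.7. It was 1.65-fold lower at 5 weeks, and its second probe differed there by -0.64, beside -0.73. Neither probe of Cyp2r1 passed 2-fold at any time. Cyp2w1, known from fetal gut and colon tumours, was above background on no array.

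The Cyp2j genes, epoxygenases of arachidonic acid, lie within 582 kb of chromosome 4, and 5 of 6 were measured. At 15 weeks none was 2-fold different, and their median was -0.23, close to that of all genes. Cyp2j9, best known from brain, was at 1.12, 0.11, 0.55 and 0.22, 2.02-fold lower at 5 weeks. That is just past the threshold, and the call depended on the scaling. The log2 difference was -0.99, not past it, with quantile normalization and with the percentile taken over detected probes. With normexp and quantile normalization together it was -0.82, and with division by the array median it was -1.07. Cyp2j5, the liver and kidney enzyme, was at 0.66, 0.96, 1.01 and 0.07, 1.51-fold lower at 15 weeks. Cyp2j6 varied least of all 32, over a range of 0.13 on the log2 scale, although its second probe was 0.29 higher at 5 weeks. Cyp2j8 and Cyp2j13 were within 1.2-fold of 0 weeks at every time, but the Cyp2j13 value comes from a probe that also lists transcripts of Cyp2j12. The other 2 Cyp2j13 probes were above background on no array.

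Cyp2u1, a hydroxylase of long-chain fatty acids, was called lower at 15 weeks from a probe made mostly of a repeat. Its brightest probe (chr3:130996343-130996402, mm9, minus strand) holds 16 GT units, whose beginning is shown in capitals.
Cyp2u1 stretch: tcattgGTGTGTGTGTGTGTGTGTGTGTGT
This probe was at 10.22, 10.27, 10.08 and 8.93, alike on 3 arrays and 2.44-fold lower at 15 than at 0 weeks. The other Cyp2u1 probes, at 130997965-130998356 and 131000939-131000998 of the same strand, were far dimmer, at 0.14 and -0.68 at 0 weeks. They differed by -0.14 and -0.59 at 15 weeks. The array had 75 probes with such a GT repeat, that of Cyp2u1 included, all above background on the 4 arrays. At 15 weeks 75 of 75 were at least 2-fold lower, with a median of -1.91 and 90% of them between -2.83 and -1.21. The value of the Cyp2u1 repeat probe lies inside that range, and the values of its other probes lie outside it.

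**Figure D4:**
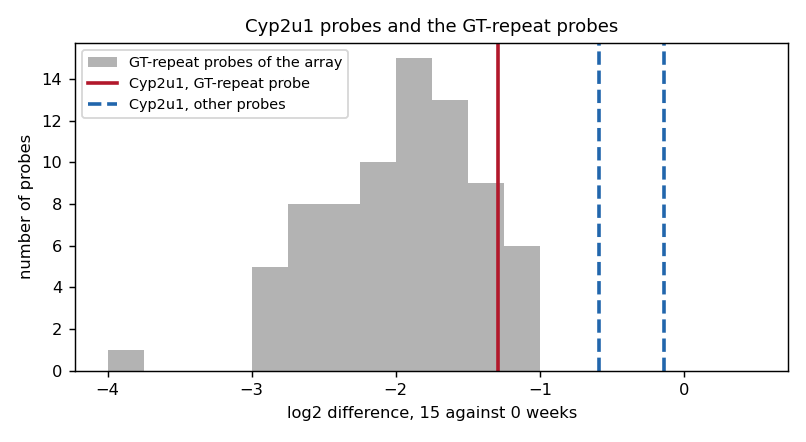
Number of probes (vertical axis) against the log2 difference between 15 and 0 weeks for the 75 GT-repeat probes of the array (grey bars, that of Cyp2u1 included), with the 3 Cyp2u1 probes as vertical lines. The repeat probe of Cyp2u1, at -1.29, lies among the grey bars, and the other Cyp2u1 probes, at -0.59 and -0.14, lie to the right of them.

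The partners of the P450 enzymes were read next. Of 14 electron donors and enzymes of haem supply and breakdown, all measured, 1 was at least 2-fold lower and 1 higher at 15 weeks. Their median was -0.2 beside -0.25 over all genes, of which 5.03% were lower and 5.76% higher. Por, the reductase that passes electrons to every microsomal P450, was at 7.07, 6.66, 6.47 and 4.99 and 4.23-fold lower at 15 weeks. Alas1, the first enzyme of haem synthesis, was at 8.45, 8.7, 9.33 and 8.2, with no 2-fold difference. Hmox1, which breaks haem down, was at 2.29, 3.01, 3.37 and 3.95 and 3.17-fold higher at 15 weeks.

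Among 27 regulators of Cyp2 genes, 23 were measured at 15 and 0 weeks, of which 2 were lower and 1 higher, with a median of -0.28. Over all genes 5.03% were lower and 5.76% higher, with a median of -0.25, so the list as a whole lay near all genes. The xenobiotic receptors were not past 2-fold. Nr1i3 was at 5.17, 4.86, 5.23 and 4.22, 1.93-fold lower at 15 weeks, and Nr1i2 at 4.39, 4.42, 4.37 and 4.11. Esr1, the oestrogen receptor, was 2.26-fold lower and Onecut1, a liver-enriched factor, 2.09-fold lower. Bcl6, a repressor that follows growth hormone, was 2.01-fold higher, just past the threshold.

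Hepatocyte genes of either zone that are not Cyp2 genes were compared with the Cyp2 values. Of 14 pericentral genes measured, 1 was lower at 15 weeks, Oat, at 2.28-fold, and none higher, with a median of -0.07. Of 13 periportal genes, 9 were lower and none higher, with a median of -1.61, led by Sdsl (5.15-fold), Asl (5.12-fold), Etnppl (4.46-fold) and Cps1 (4.05-fold). Over all genes measured, 5.03% were lower and 5.76% higher at 15 weeks, with a median of -0.25. The pericentral Cyp2e1 and the periportal Cyp2f2 differed by -0.5 and -0.55, within 0.05 of each other. These are single genes, and the other Cyp2 members were not placed by zone here. These lists were not tested, and their part in the Cyp2 values was not tested.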

How the data were processed

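Gene expression in mouse liver was measured on 4 Agilent arrays of 1 colour. Per the file headers, the deposited scanner files give intensity from Agilent Feature Extraction 10.7.3.1, on probes placed on mm9, with marks (another unit) for spots well above background. The authors also deposited an intensity table, which equals the processed signal divided by each array's median.

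Each signal was divided by the 75th percentile of its array (control spots left out) and log2 was taken. Spots of a probe were averaged, and a gene took its brightest probe. With 1 array per time no test was made and differences of at least 2-fold were counted. The family described, the lists and the rule for named genes were chosen with earlier results of these data known. Values at each time are given for members past 2-fold, for those above background at some times, and for the first of each subfamily. Others given were picked after their values were seen. All 39 symbols matched RefSeq. Alternatives included normexp (limma 3.58.1, R 4.3.3, offset 50). Python 3.11.15 and pandas 2.3.3 were used, and counting was tested on simulated data.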

Additional observations from a re-analysis of the deposited data

How the results depend on the processing

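Of the alternatives tried, the deposited table repeats division by the array median. Under the 11 distinct ones, 76 of 88 counts of members past 2-fold stayed within 1.5 times their value. With quantile normalization, and with normexp and quantile normalization, 7 members rather than 11 were lower at 15 than at 0 weeks and 1 rather than 4 lower at 15 than at 5 weeks. At 5 weeks 3 members were lower with normexp and quantile normalization together and 10 with no background filter, rather than 5. Between 15 and 5 weeks 1 member rather than 0 was higher with quantile normalization, with normexp and quantile normalization, with the percentile taken over detected probes, against the median gene and with the mean of a gene's probes, and 2 were with no background filter. Of 138 single differences recomputed under some of them, 124 stayed past 2-fold and 0 reversed. Single differences were not recomputed with another background filter, against the median gene or with alike probes counted as 1 gene. With quantile normalization the 15-week differences of Cyp2c29, Cyp2c50, Cyp2d9 and Cyp2u1 were -0.77, -0.85, -0.75 and -0.62, and the median of all genes was -0.08. Without repeat probes Cyp2u1 was read from another of its probes, at -0.14. With normexp and quantile normalization Cyp2c66 was at -1.33 rather than -3.08. Apart from that change of probe for Cyp2u1, the cause of these shifts was not tested. No paired analysis was possible because each time point has 1 array. Cyp2a22, Cyp2c55, Cyp2c65, Cyp2c66 and Cyp2g1 were not above background on every array, which leaves only rough bounds there. In all, 14 member spots had at least 5 bright neighbours.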

Other observations

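Dbp, a clock-driven factor that binds the promoters of several Cyp2 genes, was outside the rule for named genes and was picked after its value was seen. It was at 4.34, 6.37, 6.74 and 4.77 at 0, 5, 10 and 15 weeks, 4.06-fold higher at 5 weeks and 5.25-fold higher at 10 weeks than at 0 weeks. Its binding motif TTATGTAA, searched on both strands, was in 0 of the 30 Cyp2 upstream windows and in 0.862% of all 27025. The hour at which livers were taken is not given in the sources used here, and its part in these values was not tested.

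Markers of other cells in the liver also differed over time. The summed scaled signal of 10 macrophage markers was 102, 195, 223 and 254 at 0, 5, 10 and 15 weeks, and that of 7 adipocyte markers was 108, 305, 645 and 530. Car3 alone gave 81.6, 231, 605 and 449 of the latter, and without it the sum was 26.3, 74.7, 38.6 and 79.4. Adipoq and Plin1 were above background at 5 weeks alone, and Lep on no array. Their part in the Cyp2 values was not tested.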
